A study of Mus musculus with 33 samples.

Results

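The comparison described here sets 4 cloned female mouse blastocysts, each made from the nucleus of an adult Purkinje neuron, against 3 female blastocysts made by in vitro fertilization (IVF). These 7 samples, taken by the donor cell and sex in their labels, belong to a series of 33 single-blastocyst arrays. All 7 embryos carried the (C57BL/6NxDBA/2)F1 background, were female and had reached the blastocyst stage after 96 h of culture. The clones alone received trichostatin A (TSA), which blocks histone deacetylases. It was given at 50 nM through the 1 h strontium activation, through 5 h in cytochalasin B, which keeps the reconstructed egg from shedding chromosomes, and through another 2 h. Nuclear source and TSA therefore changed together. The donor neurons came from adults, whereas the female IVF embryos came from an earlier study by the same group. RNA of each embryo was amplified through 2 rounds, labelled with Cy3 and read on a 1-colour Agilent array. Neither the number of donor mice nor the egg collections behind each embryo are labelled. The p-values thus reflect the spread among single embryos, which may be partly technical.

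In cloning by nuclear transfer, the nucleus of a differentiated cell replaces that of the egg, and egg factors must return its chromatin to an embryonic state. A neuron has left the cell cycle for good, and in Purkinje cells, the output neurons of the cerebellar cortex, germline and early embryonic genes are held silent. In a blastocyst the outer trophectoderm will form placenta, while the inner cell mass holds epiblast, the source of the fetus, and primitive endoderm, which lays down basement membrane and forms the yolk sac lining. A female embryo must also silence 1 of its X chromosomes through the noncoding RNA Xist, and cloned mouse embryos are known for Xist expressed from the wrong X and for low X-linked expression.

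Levels are given as log2 of a probe's processed signal over the 75th percentile of its array, so a log2 difference of 1 is a 2-fold difference, and each gene is read from its brightest probe. Signals under a shared floor of -3.43 were set to that floor, where values have no order. A gene is called where its adjusted p in limma, over 15792 genes tested on all 33 arrays, is under 0.05. The 75th percentile of raw signal was 838 on the array of clone 1 and 354 to 470 on those of clones 2 to 4, against 1162 to 1324 on the 3 IVF arrays. Between 50.6% and 56.3% of probes stood well above background on the clone arrays and 58.2% to 60.5% on the IVF arrays. The clones filled slide 7 and the IVF embryos lay on slide 3, read by another scanner model and, per the file headers, an older version of the image software, 9.5.3.1. After background subtraction up to 20.2% of probe signals on an IVF array were at or below 0 and none on the clone arrays were, while with the shared floor 54.5% to 56.6% of probes were on it in the clones and 56.3% to 57.3% in IVF. Group, slide, scan, software and array set cannot be told apart. Embryos of a group resembled each other more than the other group: r across genes was 0.963 to 0.980 among clones, 0.957 to 0.960 among IVF embryos and 0.926 to 0.953 between the groups. Clones 2, 3 and 4 were closest to each other (0.978 to 0.980), and clone 1, the brightest array, stood apart from each of them at 0.963. Y-linked Ddx3y, Eif2s3y, Kdm5d and Uty were on the floor on all 7 arrays.

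A total of 3113 genes (19.7%) passed the test, 2059 higher (13.0% of those tested) and 1054 lower (6.67%) in the clones. The 2 groups did not overlap for 2561 of these; among all genes tested, 17.1% had every clone above every IVF embryo and 8.69% had every clone below. Falls were fewer but reached further: 69 called genes fell by more than 3 log2 units and 36 rose by more than 3. For 198 of the higher and 135 of the lower genes, every array of 1 group was below detection (not well above background, or on the floor), and only a bound on the fold can be given. The balance of directions depended on scaling: 66.1% of calls were higher with the 75th percentile, 45.9% with quantile normalization (1179 higher and 1388 lower), 14.2% with the array median (463 and 2788) and 74.1% with normexp background correction (2358 and 825). The median of all genes moved with it, from 0.08 to 0.00, -0.33 and 0.29. Leaving out clone 2 left 701 lower calls. With the 3 clones whose 75th percentile was under 500 left out, and 2 such male Purkinje arrays with them, 206 higher and 103 lower calls were made from clone 1 alone, which was assumed to vary like the other groups.

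The deepest falls lay in Magea and Xlr genes, tandem copies on the X that are normally read in germ cells and early embryos. Of 9 members tested, 8 fell and none rose, with a median of -5.41 against 0.08 for all genes. Magea1 was at 2.15, 1.90 and 2.44 in the 3 IVF embryos and on the floor in all 4 clones, at least 48.2-fold lower (adjusted p = 8.9e-09). Magea3 was at 2.08, 1.90 and 2.42 in IVF and on the floor in all 4 clones, at least 47.2-fold lower (adjusted p = 7.3e-09). Magea6 read 1.69, 0.95 and 2.62 in IVF and was not above the floor in any clone, at least 36.3-fold lower (adjusted p = 1.3e-10). These 3 genes were thus above the floor in every IVF embryo and under it in every clone. Under the floor they were not all silent, since Magea1 and Magea3 were still well above background in 2 of the 4 clones, whereas Magea6 was in none. Xlr3c, of a family encoding nuclear proteins related to the synaptonemal complex, was at 4.31, 2.31 and 3.65 in IVF and on the floor in the clones, at least 115.5-fold lower (adjusted p = 3e-05). Xlr4b stayed measurable, at 0.37, -0.48, -0.81 and 0.72 in the clones against 6.07, 4.39 and 5.62 in IVF, a difference of -5.41 ± 1.12 (SE, adjusted p = 0.0013), and its 2 other probes gave -5.11 and -4.80. Magea8 fell by 5.41, Xlr5c was at least 19.3-fold lower, Magea5 also fell, and Xlr, at -1.63, did not pass. Probes of such near copies may share targets, so the members are not independent.

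The promoters of 5 of the 8 members that fell are shown, with that of Asz1, a germ cell gene on chromosome 6 described below that fell too, because the genes moved together. Each runs from 250 bases before to 50 after the RefSeq start (GRCm38.p6), 5′ to 3′ on the gene's own strand. Capitals mark CCGGAAG or its complement CTTCCGG, a core bound by ETS-family factors.
Magea1, chrX:155089741-155090040, minus strand: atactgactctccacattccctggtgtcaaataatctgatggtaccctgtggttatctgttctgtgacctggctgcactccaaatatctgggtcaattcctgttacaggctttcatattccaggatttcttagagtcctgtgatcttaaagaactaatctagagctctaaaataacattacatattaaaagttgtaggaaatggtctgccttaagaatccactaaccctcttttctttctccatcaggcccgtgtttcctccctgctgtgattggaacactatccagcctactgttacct
Magea3, chrX:154949520-154949819, minus strand: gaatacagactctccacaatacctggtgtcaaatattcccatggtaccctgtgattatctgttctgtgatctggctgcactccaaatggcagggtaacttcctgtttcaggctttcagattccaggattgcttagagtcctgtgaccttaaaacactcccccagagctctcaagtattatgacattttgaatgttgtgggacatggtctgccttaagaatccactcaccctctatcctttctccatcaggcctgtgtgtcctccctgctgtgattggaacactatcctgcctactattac
Magea6, chrX:154926066-154926365, minus strand: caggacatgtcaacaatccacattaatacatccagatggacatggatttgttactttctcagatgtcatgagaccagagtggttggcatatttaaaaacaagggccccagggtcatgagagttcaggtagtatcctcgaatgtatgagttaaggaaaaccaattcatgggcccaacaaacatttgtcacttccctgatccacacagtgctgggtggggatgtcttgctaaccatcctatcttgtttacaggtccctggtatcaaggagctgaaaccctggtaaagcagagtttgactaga
Xlr3c, chrX:73265341-73265640, minus strand: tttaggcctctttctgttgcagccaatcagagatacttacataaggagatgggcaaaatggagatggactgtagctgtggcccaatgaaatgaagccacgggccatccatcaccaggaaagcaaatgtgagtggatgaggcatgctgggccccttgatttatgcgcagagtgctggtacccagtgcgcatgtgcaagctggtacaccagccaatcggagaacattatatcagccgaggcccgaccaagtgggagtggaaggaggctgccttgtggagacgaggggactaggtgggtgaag
Xlr4b, chrX:73214083-73214382, plus strand: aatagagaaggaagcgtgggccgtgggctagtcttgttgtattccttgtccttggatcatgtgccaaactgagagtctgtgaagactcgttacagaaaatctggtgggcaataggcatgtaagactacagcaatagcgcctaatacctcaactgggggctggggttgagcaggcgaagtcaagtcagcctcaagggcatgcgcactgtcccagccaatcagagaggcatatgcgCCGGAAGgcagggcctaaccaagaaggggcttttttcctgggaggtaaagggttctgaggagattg
Asz1, chr6:18109012-18109311, minus strand: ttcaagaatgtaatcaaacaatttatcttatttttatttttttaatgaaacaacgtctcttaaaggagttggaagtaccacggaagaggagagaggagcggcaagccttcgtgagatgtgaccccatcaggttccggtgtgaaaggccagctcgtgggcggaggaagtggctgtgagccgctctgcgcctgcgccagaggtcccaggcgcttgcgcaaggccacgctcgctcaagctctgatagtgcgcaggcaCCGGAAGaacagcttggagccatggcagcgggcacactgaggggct

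The Magea1 and Magea3 windows were 85.4% identical after alignment, whereas Magea6 shared 52.1% with Magea1, close to the 46.7% to 53% found between Magea and Xlr windows or between Xlr3c and Xlr4b. CpG dinucleotides, the sites of DNA methylation, numbered 1, 0 and 1 in the Magea1, Magea3 and Magea6 windows, 7 and 8 in Xlr3c and Xlr4b and 17 in Asz1, and 10 and 1 in those of Magea8 and Xlr5c, which are not printed, against a median of 7 over 32851 promoters. The CCGGAAG core stood once in Xlr4b and once in Asz1 and not in the other 4 windows, and 8.86% of all promoters hold it. The windows of genes that fell thus differed in sequence, in CpG number and in whether they held this core.

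Some neighbours of the families on the X fell too. Among the 3 tested genes on either side of the Xlr cluster and the 1 between its members, 5 of 7 fell: DXBay18 (-4.17), Zfp275 (-3.01), F8a (-2.08), Haus7 (-1.80) and Nsdhl (-1.74), the last a cholesterol synthesis enzyme. Beside the Magea cluster 1 of 6 fell, Cldn34b2 (-1.84), while Nbdy (-2.01, adjusted p = 0.080 in limma) and Spin2c (-1.83, adjusted p = 0.21) did not pass. Of all X-linked genes tested 18.1% fell, and the Magea count is near that share. Whether the neighbours of the families differ was not tested. The order is that of RefSeq, and these windows were chosen after the values were seen.

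The X chromosome as a whole was low in the clones. Of 551 X-linked genes tested, 100 fell (18.1%) and 48 rose (8.71%), whereas among the 19 autosomes the share that fell ran from 3.51% on chromosome 18 to 9.26% on chromosome 17. The X was the 1 chromosome, of those 20, with more falls than rises under this scaling. Per array, the mean log2 level of X-linked genes minus that of autosomal genes was -0.55, -0.59, -0.45 and -0.24 in the 4 clones and 0.02, 0.08 and 0.12 in the 3 IVF embryos, without overlap. The median difference of X-linked genes was 0.284 lower than that of autosomal genes, and stayed between 0.23 and 0.43 lower in the 21 alternatives. Clone 4, whose array was among the dim ones, lay nearest to the IVF embryos on this measure. The part of brightness in it was not tested.

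**Figure D1:**
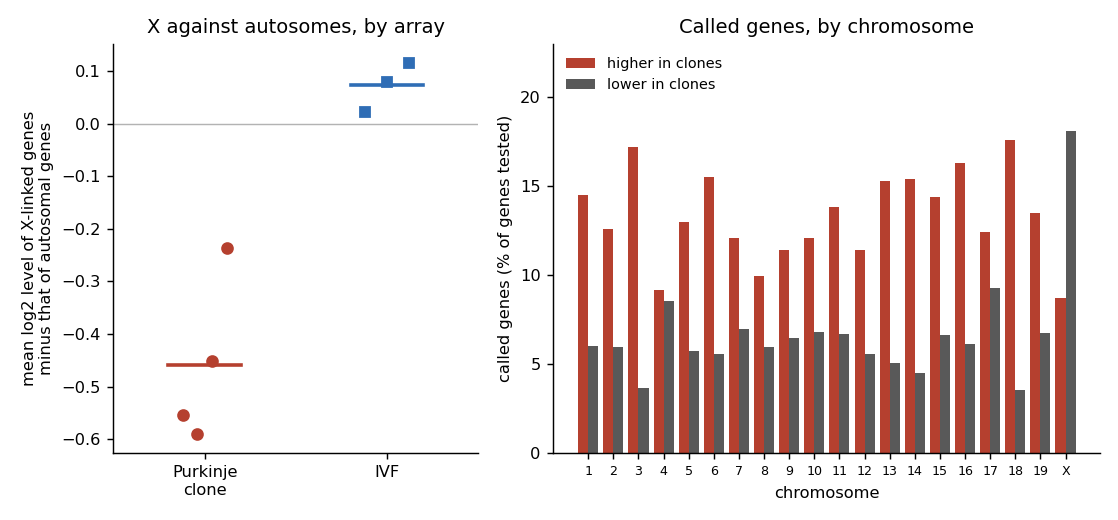
Left, the mean log2 level of X-linked genes minus that of autosomal genes on each array (points) with group means (lines): the 4 female Purkinje clones lie between -0.59 and -0.24 and the 3 female IVF blastocysts between 0.02 and 0.12. Right, the percentage of tested genes called higher or lower in the clones on each chromosome (bars): the X has 18.1% lower and 8.71% higher.

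Single X-linked genes with large falls included placental, metabolic and transport genes. Plac1, required for placental growth, was at 0.77, -2.57, -3.43 and 0.18 in the clones and 2.32, 3.70 and 3.88 in IVF, a difference of -4.56 ± 1.18 (SE, adjusted p = 0.0074). Clones 2 and 3 were at or near the floor while clones 1 and 4 were not, and no clone reached an IVF value. Pgk1, a glycolytic kinase, was at 2.78, 0.32, 0.76 and 2.74 against 5.12, 5.10 and 5.63 (-3.63 ± 0.61, adjusted p = 0.00018), the same pair of clones again being lower. Maged1, a broadly expressed relative of the Magea genes, was at -0.42, 0.43, 0.75 and 1.81 against 4.45, 4.30 and 4.38 (-3.73 ± 0.66, adjusted p = 0.00035). Tspan7, a membrane tetraspanin, was on the floor in 3 clones and at -2.16 in clone 4, against 2.37, 1.03 and 1.49 in IVF (-4.74 ± 0.94, adjusted p = 0.00087). The amino acid transporter Slc7a3 fell by 3.49.

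Other X-linked genes rose. Ebp, a sterol isomerase, was at 7.68, 8.37, 8.19 and 8.15 in the clones and 6.04, 6.45 and 5.80 in IVF (2.00 ± 0.23, adjusted p = 1.8e-06). Rhox5, a homeobox gene of placenta and gonad, was at 6.23, 7.88, 7.09 and 8.12 against 4.79, 4.68 and 4.83 (2.56 ± 0.70, adjusted p = 0.011), and was the 1 called member of 4 tested Rhox genes. Hprt, of purine salvage, rose by 1.06. Xist itself did not pass: its brightest probe read 2.88, 4.65, 4.15 and 4.06 in the clones and 3.22, 2.02 and 2.32 in IVF (1.41 ± 0.54, adjusted p = 0.066), and clone 1 lay inside the IVF range. Its 3 other probes gave differences of -1.74 to -0.35, so the probes did not settle a direction. None of the 5 tested genes of the X inactivation locus was called by limma (1 at an unadjusted p under 0.05), including Tsix, the antisense partner of Xist, which was on the floor in all 3 IVF embryos.

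Outside the X, the largest falls among genes well above background on all 7 arrays were in Lama1, Pth1r, Fam25c, Nefl, Meg3, Bend5, Dkk1 and Aqp8, which share no single function. Lama1, a laminin chain of the embryo's first basement membrane, was at -0.29, -2.63, -3.05 and -1.11 in the clones and 3.70, 2.57 and 3.66 in IVF (-5.08 ± 0.98, adjusted p = 0.00075), while its other probe showed no difference. Pth1r, the parathyroid hormone receptor found early in endoderm, was at -3.43, -3.43, -2.78 and -2.37 against 2.53, 0.56 and 2.33 (-4.81 ± 0.92, adjusted p = 0.00065), and its other probe gave -3.82. Dkk1, a secreted Wnt inhibitor, was on the floor in clone 1 and at 1.14, -0.71 and 1.42 in clones 2 to 4, against 3.44, 3.52 and 3.42 in IVF (-3.85 ± 1.38, adjusted p = 0.048), and was the most uneven of these among the clones. Aqp8, a water channel (-3.75), Bend5 (-3.91) and Fam25c (-4.25) also fell. Among genes not well above background in any clone, Ly75, an endocytic receptor, was at least 33.6-fold lower, Foxa2 at least 20.4-fold and Prkar2b, a regulatory subunit of protein kinase A, at least 16.1-fold.

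The largest rise among such genes was in Nat2, followed by the receptor Klra7, and the 12 largest ran down to 3.16. Nat2, an arylamine N-acetyltransferase, was at 2.42, 2.61, 4.19 and 4.91 in the clones and -0.45, -0.99 and -2.14 in IVF (4.72 ± 0.97, adjusted p = 0.0013). Nat1, the other arylamine enzyme, rose by 3.73, with clone 4 at 2.28 and the other clones at 0.30 to 0.40, and Nat8, which acetylates cysteine conjugates, rose by 3.16. Mgst2, a microsomal glutathione transferase, was at 2.95, 4.17, 4.20 and 2.97 against 0.86, -1.59 and -0.64 (4.03 ± 0.63, adjusted p = 0.00011). Gpx2, a glutathione peroxidase of epithelia, was at 2.88, 2.24, 3.56 and 3.03 against -1.09, -2.40 and 0.63 (3.88 ± 0.94, adjusted p = 0.0048). Klra7, a lectin-like receptor known from natural killer cells, rose by 4.54. Glrb, a glycine receptor subunit, rose by 3.96, Lipo3, of a lipase family, by 3.76, and Sgcb, a sarcoglycan, by 3.68. Of genes with a standard symbol that were well above background in every clone and in no IVF embryo, 3 were called: Mmp9, a matrix protease, was at least 3.51-fold higher, Pmp22, a membrane protein of epithelia and myelin, at least 2.66-fold, and Pcdhb22, a protocadherin, at least 1.99-fold, the last 2 with clone 1 at the floor.

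Primitive endoderm genes were low as a group. Of 21 tested, 9 fell (42.9%) and 1 rose (4.76%), against 6.67% and 13.0% of all genes, with a median of -1.56. Among the regulators, Sox7 was on the floor in 3 clones and at -2.46 in clone 2, against 2.16, -0.93 and 2.36 in IVF (-4.38 ± 1.04, adjusted p = 0.0042). Foxa2 was on the floor in all clones against 1.03, 0.60 and 1.15, and Gata4 was at least 2.56-fold lower. Gata6 and Sox17, early regulators of the lineage, did not pass: Gata6 read 6.04 to 6.94 in clones and 5.55 to 6.38 in IVF (0.40), and Sox17 read 0.38, 3.43, 2.28 and 3.11 against 3.73, 3.80 and 4.04 (-1.56, adjusted p = 0.47). Clone 1 was the lowest for Sox17, and its other probe gave -2.66. Among the products, Serpinh1, the collagen chaperone, was at 1.01, 0.63, 0.37 and 2.08 against 4.86, 3.98 and 4.79 (-3.52 ± 0.63, adjusted p = 0.00039). Cubn, an uptake receptor, fell by 3.37, the collagen chain Col4a2 by 2.73, the matrix protein Sparc by 2.07 and the laminin chain Lamb1 by 1.80. In a blastocyst taken whole, fewer cells of a lineage and less RNA per cell cannot be told apart. Leaving out 1 embryo at a time gave 7 to 10 members called lower, and the median stayed between -1.87 and -1.36. With clone 1 as the only female clone, the median was -1.70 and 1 member was lower.

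The basement membrane list overlapped with these genes. Of 24 tested members 6 fell (25.0%), including Fn1, fibronectin, by 2.06, and 2 rose (8.33%), the integrins Itga11 (2.28) and Itga6 (0.74). Among all genes 6.67% fell and 13.0% rose. The median was -0.47.

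Epiblast and trophectoderm genes went both ways. Of 22 pluripotency factors 3 rose (13.6%) and 3 fell (13.6%), against 13.0% and 6.67% of all genes. Pou5f1 was at 3.60, 4.14, 4.38 and 3.76 in the clones and 4.14, 4.69 and 4.03 in IVF (-0.32, adjusted p = 0.46), and Nanog (0.69, adjusted p = 0.41) and Sox2 (0.68, adjusted p = 0.26) did not pass either. Zfp42, or Rex1, a naive pluripotency marker, was at 6.20, 7.10, 7.09 and 7.05 against 5.14, 5.10 and 4.98 (1.78 ± 0.22, adjusted p = 5.9e-06), and its other probe gave 1.45. Dppa3, an oocyte-derived protector of DNA methylation, rose by 1.22 and Dppa5a by 0.82. Lin28a, which blocks let-7 maturation, fell by 1.88, and Tdgf1, the Nodal co-receptor, by 1.60. In the trophectoderm list 3 of 32 rose (9.38%) and 4 fell (12.5%). Cdx2, its lineage regulator, was at 6.11, 7.42, 7.10 and 7.38 against 5.67, 5.53 and 6.07 (1.24 ± 0.34, adjusted p = 0.011). Hand1, which drives giant cells, was at 0.97, 2.82, -1.62 and -0.13 against -2.98, -3.43 and -3.43 (3.79 ± 0.80, adjusted p = 0.0016). Gata3 (0.75, adjusted p = 0.070) and Eomes (0.59, adjusted p = 0.44) did not pass. Krt7, a simple epithelial keratin, was at 1.90, 1.07, 1.18 and 0.04 against 3.73, 3.96 and 3.56 (-2.70 ± 0.49, adjusted p = 0.00039). Cdx2 lost its call under normexp, quantile and array median scaling.

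Genes of the DNA methylation machinery fell more often than they rose. Of 17 genes tested, 8 fell (47.1%) and 3 rose (17.6%), against 6.67% and 13.0% of all genes, with a median of -1.04. The 3 rises lost their call without IVF embryo 1. Dnmt1, the maintenance methyltransferase, was at 0.31, -0.59, -0.38 and -0.92 in the clones and 1.58, 2.27 and 1.91 in IVF (-2.31 ± 0.38, adjusted p = 0.00015). Dnmt3b, which sets new methylation, was at 3.82, 3.69, 3.23 and 3.34 against 5.79, 5.62 and 5.50 (-2.12 ± 0.24, adjusted p = 1.6e-06). Neither gene's groups overlapped, and the spread within each group was small. Uhrf1, which brings Dnmt1 to replicated DNA, fell by 1.52, Dnmt3l, a cofactor of new methylation, by 1.18, and Trim28 and Zfp57, which guard imprints, by 1.18 and 1.13. The demethylating dioxygenases went opposite ways: Tet3 fell by 2.60, with an other probe at 0.06, and Tet2 rose by 1.67. Dnmt3a (-1.04) and Tet1 (-0.59) did not pass. Dnmt3b kept its call in all 21 alternatives and Dnmt1 in 20, while 3 members of the list were lower with clone 1 as the only female clone.

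**Figure D2:**
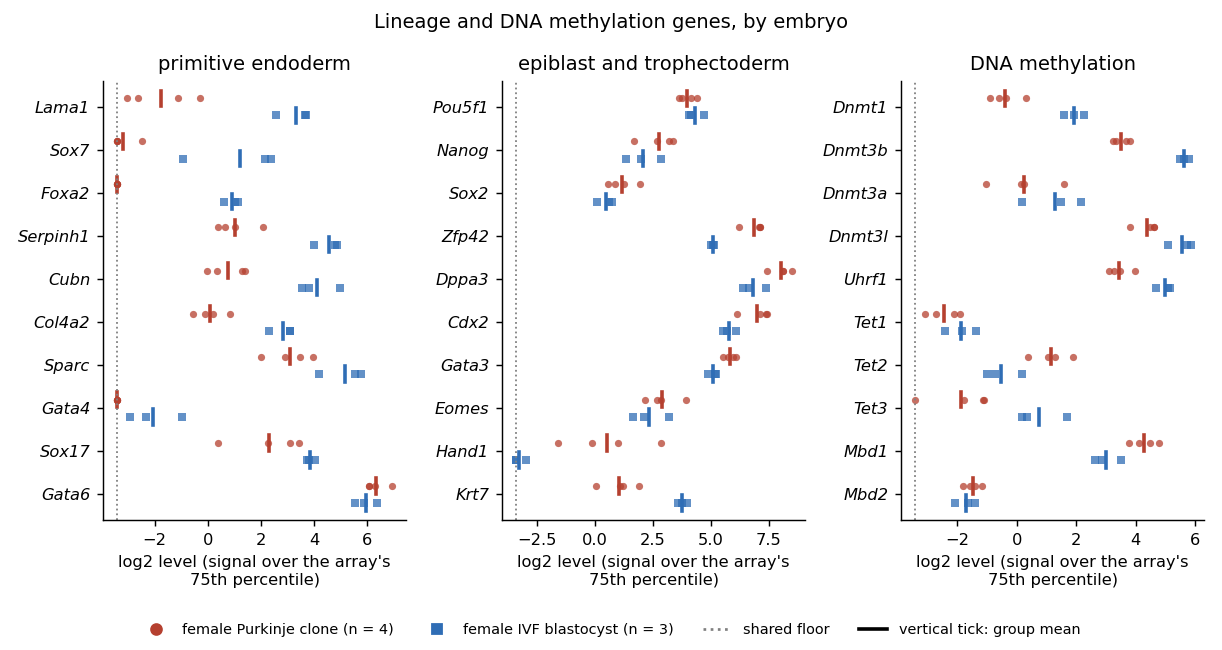
The log2 level of primitive endoderm genes (left), epiblast and trophectoderm genes (middle) and DNA methylation genes (right) in each of the 4 female Purkinje clones (circles) and 3 female IVF blastocysts (squares), with group means as vertical ticks and the floor at -3.43 dotted. Foxa2 and Gata4 are on the floor in all 4 clones, whereas Pou5f1, Nanog and Gata6 overlap between the groups.

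Histone modifiers showed no shared direction. Among H3K9 methylation genes 3 of 17 rose and 3 fell: the methyltransferases Setdb1 (-1.48) and Suv39h1 (-1.33) and the heterochromatin protein Cbx5 (-1.0) were lower, while Cbx1 (1.61), Cbx3 (1.1) and Ehmt1 (1.28) were higher. Other probes of Cbx1 and Cbx5 gave the opposite sign. Of 24 histone deacetylases and partners, the targets of TSA and their complexes, X-linked Hdac6 fell by 1.91 and Sin3b rose by 1.03. Hdac1 was at 5.43, 5.34, 5.01 and 4.72 against 5.25, 5.14 and 5.30 (-0.10, adjusted p = 0.84). Polycomb subunits had 3 of 30 higher, among them Bmi1 (1.68) and Suz12 (1.29), and 2 lower, Ring1 (-1.27, other probe 0.08) and Phc2 (-1.15). Among all genes 13.0% rose and 6.67% fell. The deacetylase list (4.17% each way) and the Polycomb list exceeded neither share, while the H3K9 list (17.6% each way) was above both.

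Imprinted genes changed singly. Meg3, a maternally expressed noncoding RNA of chromosome 12, was on the floor in clones 2, 3 and 4 and at -3.14 in clone 1, against 0.63, 0.90 and 0.66 in IVF (-4.09 ± 0.69, adjusted p = 0.00019), and its other probe gave -3.39. H19 fell by 2.32 with overlapping groups, the lipid transfer gene Osbpl5 by 1.96, and Slc22a18 rose by 2.24. Thus 3 of 17 maternally expressed genes fell (17.6%) and 1 rose (5.88%), against 6.67% and 13.0% of all genes. None of 15 paternally expressed genes was called by limma, and 2 had an unadjusted p under 0.05, 1 each way. Of 18 genes imprinted through H3K27me3, a histone mark that cloned embryos are known to lose, the amino acid transporters Slc38a1 and Slc38a4 rose and Inhbb, an activin subunit, fell by 2.35. Slc38a4 was at 5.42, 5.80, 5.68 and 5.72 against 3.73, 4.15 and 4.54 (1.51 ± 0.31, adjusted p = 0.0011). The median of the list was 0.62, and 0.01 with array median scaling.

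Germline genes outside the X followed Asz1 only in part. Asz1, of the piRNA pathway that silences transposons, was on the floor in all 4 clones and at 0.23, 0.96 and 0.58 in IVF, at least 16.2-fold lower (adjusted p = 1.3e-10). Of 25 germline genes tested, Tuba3a (-1.28) and Prdm1 (at least 2.52-fold lower) also fell, and Tex19.1 (1.05) and Dpep3 (at least 1.99-fold higher) rose, Tex19.1 with 2 IVF values since 1 spot was an outlier. Mael, Ddx4, Dazl and the synaptonemal genes Sycp1 to Sycp3 did not pass. In the 2-cell stage list 2 of 8 rose, Tdpoz1 (2.15) and Sp110 (1.28), and none fell. For comparison, 13.0% of all genes rose and 6.67% fell. The germline list was below the first share and above the second. The short 2-cell list was above the first.

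Of 31 genes of cholesterol and fatty acid synthesis, 6 fell (19.4%) and 2 rose (6.45%), with a median of -0.37. Among all genes 6.67% fell and 13.0% rose. Fasn, fatty acid synthase, was at 0.86, 1.65, 1.58 and 0.75 in the clones and 3.71, 3.74 and 3.96 in IVF (-2.59 ± 0.50, adjusted p = 0.00079), and its other probe gave -0.74. Acaca, the carboxylase before it, was at -1.99, -1.93, -1.66 and -2.02 against -0.25, 0.04 and 0.21 (-1.90 ± 0.30, adjusted p = 0.00013), while its other probe gave 0.02. Acly, which supplies their acetyl-CoA, fell by 1.03, and the cholesterol enzymes Nsdhl, Mvk and Mvd by 1.74, 1.45 and 1.42. Ebp and the sterol regulator Srebf2 (1.09, other probes -0.30 and 1.20) rose. Of 25 genes of lipid droplets and fatty acid oxidation 7 rose (28.0%) and 1 fell, with a median of 0.14. This balance turned with the scaling, to 1 higher and 6 lower with the array median and 1 and 2 with quantile normalization, and without IVF embryo 3 there were 2 higher. Cidea, a droplet protein, was at 2.72, 2.62, 4.56 and 2.80 against 0.62, 0.66 and -0.97 (3.07 ± 0.75, adjusted p = 0.0051), and the oxidation enzymes Acadl and Cpt2 rose by 1.09 and 0.89. Apoe, a lipid carrier, was at 3.04, 2.67, 2.69 and 2.41 against 4.99, 5.87 and 5.12 (-2.62 ± 0.39, adjusted p = 7e-05).

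Sugar metabolism had 3 of 28 genes lower and 3 higher (10.7% each), against 6.67% and 13.0% of all genes. Beside Pgk1, Ldha, which makes lactate, fell by 2.30 (2 IVF values) and the muscle-type phosphofructokinase Pfkm by 1.81, while the mitochondrial pyruvate carrier Mpc2 rose by 1.15 and the pyruvate dehydrogenase subunit Pdha1 by 0.90 (other probe -0.01). Of 32 antioxidant genes 10 rose (31.2%) and 1 fell, but 2 were higher and 7 lower with array median scaling, 6 and 5 with quantile normalization and 4 and 2 with normexp. Beside Mgst2, the glutathione reductase Gsr was at 4.04, 4.31, 4.71 and 4.55 against 2.62, 2.78 and 3.12 (1.56 ± 0.27, adjusted p = 0.00023), and its 2 other probes gave 1.55 and 2.26. Sod1, a superoxide dismutase, rose by 1.44 and Gsta3 by 1.65, and Mgst3 fell by 1.51. Amino acid transporters had 4 of 24 higher (16.7%) and 2 lower (8.33%), against 13.0% and 6.67% of all genes.

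Genes of protein synthesis, folding and turnover were called higher in shares above the 13.0% of all genes, but the counts depended on the scaling. Cytosolic ribosomal proteins had 33 of 77 higher and none lower (median 0.56), mitochondrial ribosomal proteins 27 of 78 and none (0.59), respiratory chain genes 17 of 81 and none (0.45), proteasome subunits 12 of 39 and 3 (0.56), and chaperones 10 of 25 and 1 (0.53). With quantile normalization the medians were -0.03, 0.19, -0.06, 0.08 and 0.03, with 3 cytosolic ribosomal genes higher and 1 lower and 10 mitochondrial ones higher and 2 lower. Array median scaling gave -0.04, -0.02, -0.15, -0.02 and -0.04. That scaling shifts genes above its floor alike. Its floor was set anew, and genes on it do not shift with the rest. Relative to the median of all genes the lists stood at 0.29, 0.31, 0.18, 0.32 and 0.30 with array median scaling. They stood at 0.48, 0.51, 0.37, 0.47 and 0.45 with the 75th percentile and at -0.19, -0.16, -0.29, -0.11 and -0.20 with normexp. Higher calls dropped to 21 cytosolic ribosomal genes without clone 2, 17 mitochondrial ribosomal genes without IVF embryo 3, 8 respiratory chain genes without IVF embryo 1 and 7 proteasome subunits without clone 3. Rpl7a, an abundant ribosomal protein, was at 8.55, 9.32, 8.99 and 9.02 in the clones and 7.74, 7.64 and 7.45 in IVF (1.36 ± 0.23, adjusted p = 0.00023), and its other probes gave -0.20 and 0.97. Hsp90aa1, a stress-inducible chaperone, rose by 1.54, the co-chaperone Dnajb4 by 2.84 and the proteasome lid subunit Psmd11 by 1.64, while the small heat shock protein Hspb1 fell by 1.58. The clone arrays, which were dimmer than the IVF arrays, moved with these lists, and the part of brightness in them was not tested.

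**Figure D3:**
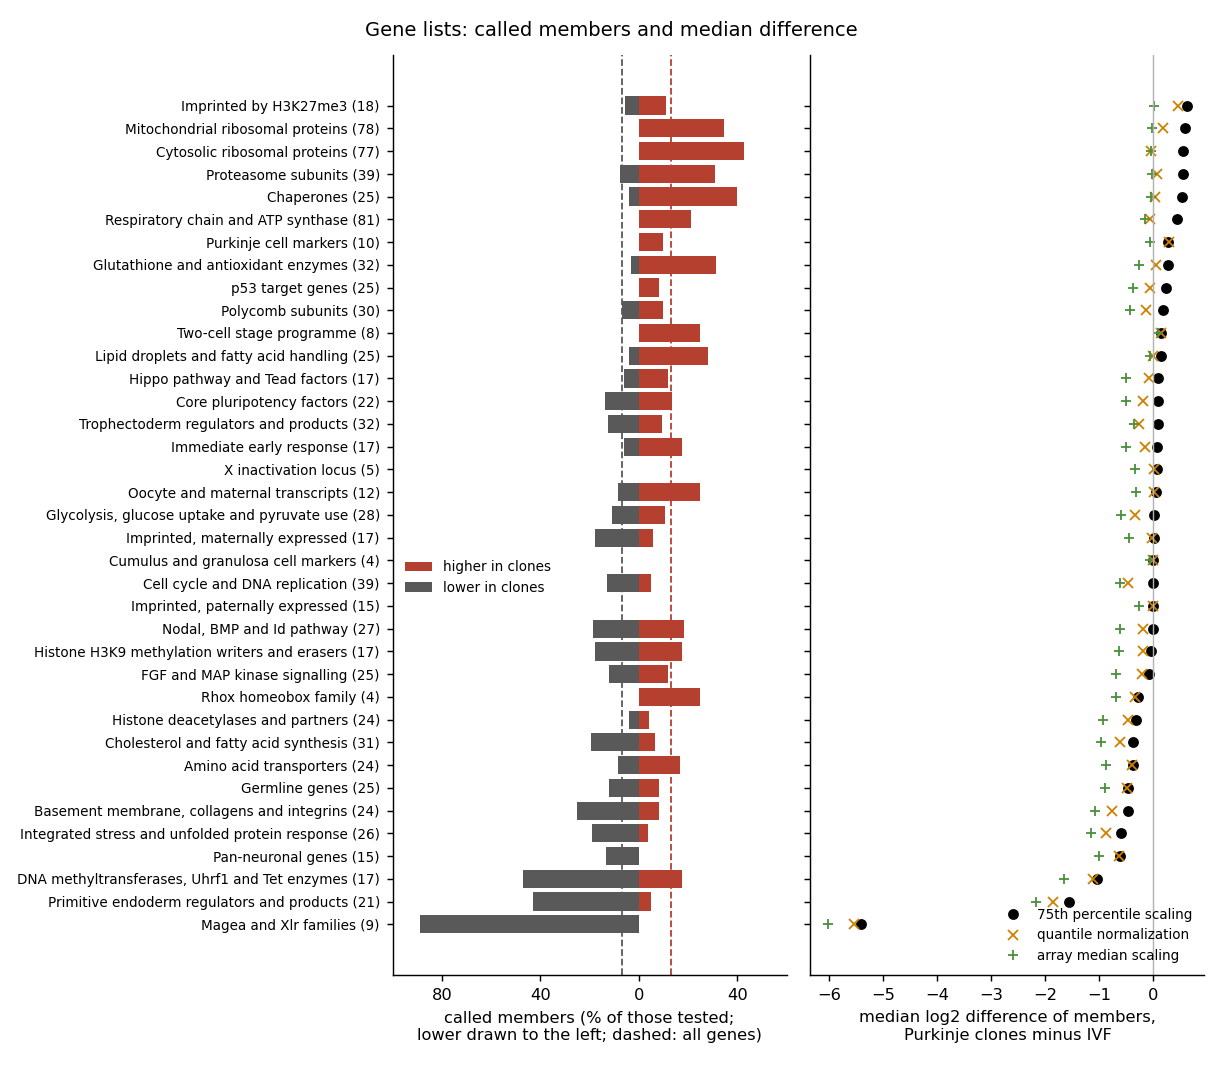
Left, the percentage of tested members of each gene list (number tested in brackets) that were called higher or lower in the female Purkinje clones, with the shares of all genes, 13.0% and 6.67%, dashed. Right, the median log2 difference of each list under 3 scalings: the Magea and Xlr, primitive endoderm and DNA methylation lists lie below 0 under all 3, whereas the ribosomal, proteasome, respiratory chain and chaperone lists lie between -0.15 and 0.19 under the other 2.

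The stress lists differed in their calls. Of 25 targets of p53, which halts the cycle after DNA damage, 2 rose (8.0%), the cyclin Ccng1 (1.89) and the nuclease Aen (0.92, other probe -0.25), and none fell. The cell cycle inhibitor Cdkn1a was at 0.74, 1.70, 1.46 and 0.66 in the clones and 1.72, 0.05 and -0.60 in IVF (0.75, adjusted p = 0.50), with overlapping groups, and Trp53 was at -0.33 (adjusted p = 0.49). In the integrated stress and unfolded protein list 5 of 26 fell, a larger share than the 6.67% of all genes, and 1 rose. The median was -0.60. Without IVF embryo 3, 1 member fell. Xbp1, a transcription factor of the unfolded protein response, was at 0.11, -0.41, -0.43 and -0.54 against 1.06, 1.18 and 1.81 (-1.66 ± 0.27, adjusted p = 0.00014). Atf4, the effector of the integrated response, fell by 1.0 and its targets Mthfd2 and Shmt2, of mitochondrial folate metabolism, by 1.65 and 1.48, whereas Cebpb rose by 2.18 (other probe 0.01). Of 17 immediate early genes 3 rose (17.6%) and 1 fell (5.88%): Jun (2.35), Jund (1.60, with 2 IVF values) and Dusp6 (1.33) rose and Myc, at 0.05, -0.23, -0.31 and -1.34 against 1.95, 2.33 and 1.77, fell by 2.47 (adjusted p = 0.0074).

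In signalling, Id1 and Id3, direct targets of BMP, fell. Id3 was at -3.20, -1.37, -2.35 and -2.28 in the clones and 1.32, 0.89 and -0.51 in IVF (-2.87 ± 0.57, adjusted p = 0.00098). Id1 fell by 1.89 with overlapping groups, on the floor in 3 clones and at -1.68, -3.43 and 0.88 in IVF. Id1 lost its call without IVF embryo 3, with the 7 arrays alone, with normexp and with the authors' deposited value table. Lefty1, a Nodal inhibitor, was on the floor in all clones and in 1 IVF embryo. Receptors and the shared mediator of the pathway rose, Acvr2a by 1.42, Bmpr2 by 1.16 and Smad4 by 1.12 (other probe -0.18), so that 5 of 27 genes fell and 5 rose. FGF and MAP kinase genes also split, 3 of 25 each way: Mapk3 (-1.89), Hras (-1.62) and the feedback inhibitor Spry4 (-3.0) fell, and Dusp6, Spry2 (1.22, other probe -0.35) and Nras (0.94, other probe -0.54) rose. In the Hippo list Ccn2 (1.62) and Stk4 (0.96) rose and Amotl2 (-0.85) fell, of 17. Cell cycle genes had 5 of 39 lower and 2 higher. The replication genes Mcm3 (-0.95) and Orc1 (-0.94) and the cyclins Ccnd1 and Ccnd3 (-0.89) were among those lower. Cdkn1b (1.5) and Bub1 (1.02) were higher. For comparison, 13.0% of all genes rose and 6.67% fell. Rises in the FGF, Hippo and cell cycle lists and falls in the Hippo list were below these shares. Falls in the FGF and cell cycle lists, and both directions in the Nodal and BMP list, were above them.

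Transcripts of the donor neuron were looked for directly. Of 19 Purkinje cell markers on the array 10 could be tested and 1 was called higher. Pcp2, the most restricted of the markers, was at -0.61, -0.02, -0.51 and -0.36 in the clones and -0.52, -0.75 and -1.04 in IVF (0.39, adjusted p = 0.44). Mean levels of the Purkinje list ran from -1.43 to -1.30 in clones and -2.33 to -1.78 in IVF. None of 15 pan-neuronal genes tested, of 24 on the array, rose (1 at an unadjusted p under 0.05) and 2 fell: Nefl, a neurofilament, was at -3.43, 1.06, -3.43 and -1.55 against 2.12, 2.21 and 2.65 (-4.17 ± 1.07, adjusted p = 0.0073), and Rtn1 fell by 3.24. For cumulus cells, which surround the egg and could be carried over, 4 of 17 markers could be tested, none was called by limma or had an unadjusted p under 0.05, which makes 0 of 4, and Cyp11a1 and Inha were on the floor on all 7 arrays. Oocyte transcripts had 3 of 12 higher (25.0%), Gdf9 (2.30), Dppa3 and Khdc3 (1.01), and Tle6 lower (-1.27). Among all genes 13.0% rose and 6.67% fell, against 0.0% and 13.3% of pan-neuronal genes.

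The same contrast in males, between 4 male Purkinje clones and 7 male IVF blastocysts, shares no sample with the female one, and the difference between the 2 contrasts was tested gene by gene. The male contrast itself called 28.6% of genes. The difference between the contrasts passed for 9 of 15792 genes, 2 with the female change higher (0.0127%) and 7 lower (0.0443%). Xist was on the floor in all male IVF embryos and at 2.14 ± 1.37 (SD, n = 4) in male clones, so that its change was at least 5.57 in males, against 1.41 in females. The fitted difference was -4.16 ± 0.70 (SE, adjusted p = 0.0062) with the male IVF value at the floor, and the gap between the sexes is thus at least that large. Tspan7 changed by 1.61 in males and -4.74 in females (-6.36 ± 1.21, adjusted p = 0.026). Btg2, a p53 target that slows proliferation, changed by 1.88 in males and -0.36 in females (-2.24 ± 0.39, adjusted p = 0.0090). Its female clones and female IVF embryos stood at 2.92 ± 0.35 and 3.28 ± 0.15, and male IVF embryos at 1.49 ± 0.51. Adcyap1r1, a peptide hormone receptor, and Pacs1, a sorting protein, were measurable in female IVF embryos and near the floor in the other 3 groups (-1.22 and -2.84, adjusted p = 2.6e-05 and 0.0062), and Klk10, a secreted protease, was at -2.65 ± 0.18 in female clones and at or near the floor in the other 3 groups (0.75, adjusted p = 0.015). Since values on the floor enter them, the sizes of these differences depend on the floor. The remaining 3, named because the count is small, were 4930591A17Rik (1.48) and the transcripts AK050904 and Y-linked AK029558. Without clone 1 the count was 15 and without IVF embryo 2 or 3 it was 20, and with normexp correction it was 0 by limma, where 402 had an unadjusted p under 0.05 against 1209 here.

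Other genes gave different values in the sexes without passing that test. Cdkn1a differed by 3.38 in males and 0.75 in females, and 16 of 25 p53 targets were higher in male clones against 2 in females, but 1 of the 25 differed between the sexes, Btg2. Rhox5 rose by 6.17 in males and 2.56 in females. Primitive endoderm genes had 10 of 21 lower in males, and the Magea and Xlr genes 8 of 9. The male contrast, with 7 IVF embryos, called 28.6% of genes in either direction and the female one, with 3, called 19.7%. Counts of calls in the sexes are thus not directly comparable, and male shares by direction are not reported here.

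**Figure D4:**
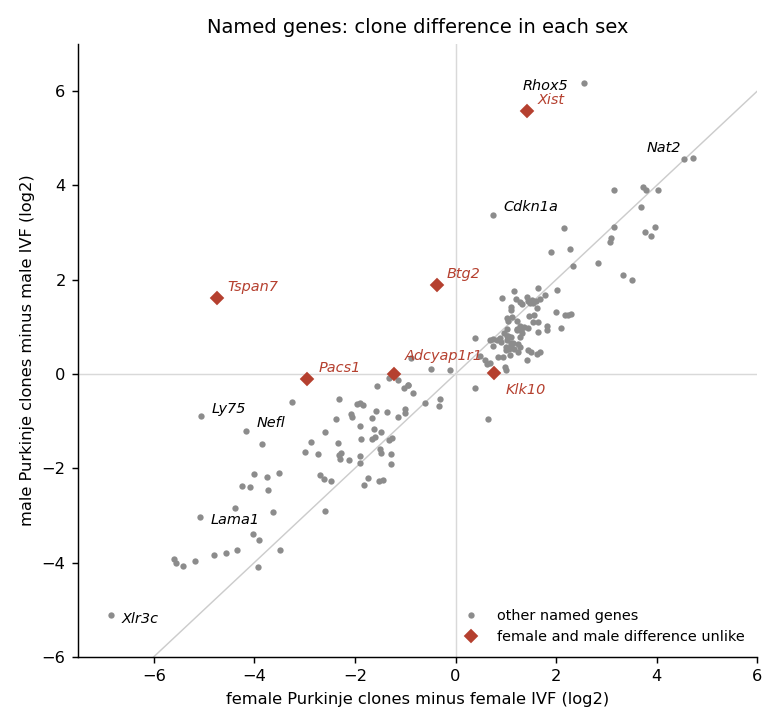
Each point is a named gene, placed by its log2 difference between female Purkinje clones and female IVF blastocysts (x axis) and between male Purkinje clones and male IVF blastocysts (y axis), with equal differences on the grey diagonal. Diamonds mark the 6 named genes whose difference between the sexes passed the test; Xist lies at 1.41 and 5.57, the latter a lower bound, and Tspan7 at -4.74 and 1.61.

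Set against 4 female clones made from CA1 pyramidal neurons of the hippocampus, treated with TSA in the same way, the Purkinje clones differed directly in 1740 genes (11%), 977 higher (6.19%) and 763 lower (4.83%). Of the 9 Magea and Xlr genes limma called 0, with 0 at an unadjusted p under 0.05, and Magea1, Magea3 and Magea6 were on the floor in both groups, where no difference can be seen. Dnmt1 stood at -0.39 ± 0.52 (SD, n = 4) in Purkinje and 1.93 ± 0.47 in CA1 clones (-2.32, adjusted p = 0.00014), so that its low level was not shared. Dnmt3b was 1.28 lower (adjusted p = 0.00064), Apoe 2.37 lower (adjusted p = 0.00016), Fasn 2.09 lower (adjusted p = 0.0047) and Acaca 1.40 lower (adjusted p = 0.0021) than in CA1 clones. Zfp42 was 1.52 higher (adjusted p = 6.3e-05), Hsp90aa1 1.56 higher (adjusted p = 0.0029) and Nat2 3.21 higher (adjusted p = 0.020). By list, 9 of 31 cholesterol and fatty acid genes and 5 of 17 DNA methylation genes were lower in Purkinje clones, and 33 of 77 ribosomal, 14 of 39 proteasome and 11 of 25 chaperone genes were higher. The CA1 arrays were brighter, with a 75th percentile of 1030 to 1466, and on a slide of their own, so that donor and slide cannot be told apart here either.

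Against the same 3 IVF embryos, 13.3% of genes were called for CA1 clones and 5.31% for the 3 cumulus clones, in contrasts that share those controls with the Purkinje contrast. The cumulus arrays had the scanner model and software version of the IVF arrays, whereas the CA1 arrays had those of the Purkinje arrays. Fewer cumulus than CA1 clones were measured. These shares are thus not directly comparable between donor cells, and the part of scanner and software in them was not tested. CA1 clones differed by 0.01 for Dnmt1, 0.26 for Zfp42 and -0.25 for Apoe, where Purkinje clones differed by -2.31, 1.78 and -2.62. The list medians for Purkinje, CA1 and cumulus clones were -5.41, -5.18 and -4.87 for Magea and Xlr genes and -1.56, -1.61 and -1.19 for primitive endoderm genes. Values on the floor enter the Magea and Xlr medians, which thus give no order of the clone groups. For the DNA methylation list they were -1.04, -0.34 and -0.67.

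The clones were not equally far from the IVF embryos. Clone 1 was the nearest of the 4 in 57.9% of 2049 higher genes and 51.4% of 919 lower genes without ties, and clones 2, 3 and 4 in 8.10% to 18.5%. For Zfp42 clone 1 was at 6.20 and the other clones at 7.05 to 7.10, and for Lipo3 it was at 0.13 and the others at 3.23 to 3.55. On Magea1, Magea3, Magea6 and Xlr3c clone 1 was on the floor like the others. Clone 1 had the brightest array of the 4, and the part of brightness in its position was not tested.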

How the data were processed

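Single blastocysts were measured on 1-colour Agilent whole-genome arrays, 33 in all. Per the submitters' processing notes, images were read with Agilent Feature Extraction 10.5.1, but the file headers name version 9.5.3.1 on the IVF and cumulus clone arrays and 10.5.1.1 on the others. The deposited scanner tables hold processed signal as intensity on a linear scale, already background-subtracted per the file headers. The authors' deposited value table is on a log2 scale. It was compared with the scanner intensities: log2 of the 75th percentile-scaled signal, with each probe centred on its median over the arrays of 1 sex, differed from it by a median of 0.0123 or less, while its column medians ran from -0.591 to 0.767, and its genes are thus centred within each sex. It served as an alternative.

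Each array's intensity was divided by its 75th percentile, raised to a shared floor of 0.0929, the highest over arrays of the 1st percentile of signals well above background, and taken to log2. Of all probe values 56.1% were on the floor. Control spots and outlier spots were left out. A probe was kept when it had at least 2 values in every group, was well above background on more than 50% of the arrays of any of the 8 groups, and lay above the floor on at least 3 arrays, which left 22789 probes, and the brightest probe stood for each of 15792 genes. Names came from RefSeq for 23082 probes by accession, 6582 by symbol and 3073 by synonym, of 41174, and 8437 kept the name in the file. limma 3.58.1 in R 4.3.3 fitted means of 8 groups over 33 arrays with moderated variances, and Benjamini-Hochberg adjustment ran over all genes. It was tested on simulated data. Tables and plots used Python 3.11.15.

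Named genes were the 12 largest rises and falls well above background on all 7 arrays without overlap, up to 5 largest bounds each way among genes well above background on every array of 1 group and none of the other, up to 4 called members of each gene list each way, 24 genes always named where tested, and the 6 strongest differences between the sexes each way, all with standard symbols. Genes outside this rule (the X neighbours, the other members of small groups quoted in the text, and gene families in the closing section) were chosen after their values were seen. The samples, lists and rules were chosen with earlier results of these data known. A bound is the mean of the brighter group against the floor or the dim group's own signal, whichever was higher. Alternatives changed the background correction, scaling, floor, filter, probe rule, arrays fitted, weights and block, and left out each replicate. A few called genes of the lists are counted but not reported here by name.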

Additional observations from a re-analysis of the deposited data

Results flagged for a closer look

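Where 1 of the 4 clones lay far from the other 3 (Dixon's test at its 95% critical value), the value is given here. The 3 IVF embryos are too few for this check. It picked out 22 of 191 named genes (11.5%), where chance picks about 1 in 20, and 4 of 37 lists. Clone 1 was the sample apart in 10 of the 22 genes, clones 2, 3 and 4 in 2, 4 and 6, and in 6 the other 3 clones were all on the floor. Clone 1 had the brightest array of the 4, and the part of brightness was not tested.

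Clone 1 was low for genes that were higher in the clones: log2 levels of 0.16 for the activin receptor Acvr2a, 3.90 for the methyltransferase Ehmt1, 0.13 for Lipo3, 5.70 for the Polycomb subunit Suz12, 5.41 for the glycosylase Tdg, 5.06 for the respiratory chain subunit Uqcrb and 6.20 for Zfp42. It was high for 3 that were lower, at -3.14 for Meg3, -3.37 for Pacs1 and 0.55 for the Polycomb subunit Phc2. It was also the low clone for the mean of the chaperones, at 4.71, and of the Hippo list, at 2.00.

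Clone 2 was high for the endoderm regulator Sox7 at -2.46, for the FGF inhibitor Spry4 at -1.97 and for the mean of the cumulus markers at -3.32, next to the floor. Clone 3 was high for the droplet protein Cidea at 4.56, the imprinted H19 at -1.01 and Id1 at -2.93, and low for the 2-cell stage gene Tdpoz1 at -1.19. Clone 4 was high for Aqp8 at 2.18, Nat1 at 2.28, the testis proteasome subunit Psma8 at -0.57 and Tspan7 at -2.16. It was low for the chaperone Hspa4l at 0.32, the imprinted Slc22a18 at -1.46 and the mean of the cell cycle list at 2.88.

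The female change differed from the male change, by the test of that difference in limma, in 6 named genes. The log2 difference of the changes was -6.36 for Tspan7, -4.16 for Xist (a bound, as male IVF embryos were on the floor), -2.84 for Pacs1, -2.24 for Btg2, -1.22 for Adcyap1r1 and 0.75 for Klk10.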

How the results depend on the processing

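The fit gave 2059 higher, 1054 lower and 9 sex-unlike genes. Higher calls numbered 463 with array median scaling, 1179 with quantile normalization and 1217 with the 7 arrays alone, lower calls 2788 with array median scaling and 607 with the 7 arrays. Without Purkinje arrays whose 75th percentile was under 500, which leaves 1 female clone, there were 206 higher, 103 lower and 26 sex-unlike. Sex-unlike genes numbered 0 with normexp (402 at an unadjusted p under 0.05 in limma), 14 with no filter and 32 with array weights. Leaving out 1 embryo gave 1392 to 2296 higher, 701 to 1166 lower and 9 to 20 sex-unlike. Signs turned with normexp for Aldoa (-0.08), Ccnd1 (0.03) and Cdh3 (0.63), with array median scaling for Tdg (-0.12), with quantile normalization for Dppa5a (-0.13) and Tdg (-0.03), with the mean of probes for Rps13 (-0.19) and Tdg (-0.02), and without the dim arrays for Itga6 (-0.13), Mgst3 (0.25), Mrps18b (-0.11) and Spry2 (-0.11). The cause was not tested. Of 191 named genes, 21 kept their side of the threshold and direction in every alternative that tested them. Among them Dnmt3b, Acaca, Lin28a and Ebp were called in all 21 and Magea1, Magea3, Magea6, Xlr3c and Asz1 in 20, since the strictest filter removes them. Replicate numbers did not pair the embryos (correlations of deviations -0.207, -0.104 and 0.03), and a replicate block gave 2015 higher, 1022 lower and 12 sex-unlike. Slide as a random block gave 1788 higher and 864 lower. Normexp was run on median spot signals, chosen after seeing the data, and not on the planned mean signals. The number of arrays, and signal on the floor for 56.1% of probe values, limit what can be seen of weak transcripts.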

Other observations

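Some gene families moved in ways no list covered. They were chosen after their values were seen, so their counts are descriptions. All 5 tested Klra genes, lectin-like receptors of natural killer cells clustered on chromosome 6, were higher in the clones, with a median of 4.08. Klra4, Klra16 and Klra15 were on the floor in all 3 IVF embryos and at least 15.8-fold, 17.3-fold and 6.64-fold higher in the clones, and Klra20 rose by 4.08. Near copies such as these may share probes' targets, so they are not independent. Of 41 Dnaj co-chaperones 13 were higher and 2 lower, and of 11 Klk proteases 3 were higher and none lower, against 13.0% higher and 6.67% lower among all genes. These family counts were not recomputed under other scalings, where the median of the chaperone list was -0.04 (array median), 0.03 (quantile) and 0.09 (normexp).

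Oas genes, which encode sensors of double-stranded RNA, went both ways, with 3 of 10 lower and 1 higher. Oas1a was at 0.67, 1.12 and 0.38 in the IVF embryos and on the floor in all 4 clones, at least 17.8-fold lower (adjusted p = 9.9e-07 in limma), while Oas3 was at least 4.31-fold higher. Among the X-linked Bex and Armcx genes 3 of 9 were lower, with Bhlhb9 at -4.26 and Bex3 at -2.64. Among tetraspanins 5 of 16 were lower and 2 higher. The placental hormone Prl8a9 rose by 3.49.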
